A study of Mus musculus with 6 samples.

Results

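The genes described here are the partners that decide what the muscle factor Myod1 can do on its target genes: the E-protein genes Tcf3, Tcf4 and Tcf12, the Id genes Id1, Id2 and Id3, and the Mef2 genes Mef2a, Mef2c and Mef2d. They were taken by gene symbol and not by a rule on their values, though with earlier results of these data known. All 9 were found among the 55376 genes of the deposited tables. The 6 libraries came from RNA immunoprecipitation sequencing (RIP-seq) of satellite cells (SCs), the stem cells of skeletal muscle, from C57BL/6 mice aged 3 months. In RIP-seq, RNA bound to a protein is pulled out of a lysate on antibody-coated beads and sequenced. The 3 groups of 2 libraries each were the CPEB1 immunoprecipitate (CPEB1 IP), the precipitate of a control IgG, and input RNA of the same kind of lysate that was not precipitated. CPEB1 is an RNA-binding protein that recognises short U-rich motifs, cytoplasmic polyadenylation elements (CPEs), in 3′ UTRs and controls poly(A) tail length and translation. All groups share the sort (CD31-, CD45-, Sca1-, Vcam1+ cells) and the use of freshly isolated SCs (fiSCs), which have left quiescence to some degree during isolation. The labels number the libraries 1 and 2 in each group, and the study's methods speak of independent experiments without saying how many animals went into each.

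Myod1 is a basic helix-loop-helix (bHLH) factor that binds E-box sites in DNA as a dimer with an E protein. Id proteins have the dimerization domain but no DNA-binding region, so they hold E proteins away from Myod1. Mef2 proteins are MADS-box factors that work with Myod1 on muscle genes, and class IIa histone deacetylases keep them inactive. In SCs, Id genes are known as brakes on differentiation under BMP and Notch signalling.

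CPEs were looked for in the longest annotated 3′ UTR of each gene (GENCODE M21 on mm10), as 9 motifs of which TTTTAT and TTTTAAT are called canonical. All 9 genes held at least 1 CPE and 7 held a canonical one, against 73.1% and 65.3% of the 10891 tested genes with an annotated 3′ UTR. The windows of 30 bases below show, 5′ to 3′ on the transcript strand, the CPE nearest upstream of the poly(A) hexamer (AATAAA or ATTAAA in the last 40 bases) or, where there was no hexamer, the last CPE. They are shown because these are the letters CPEB1 is known to read, and capitals mark the motif. No window is printed for Tcf4.
Id1 (chr2:152737253-152737282, + strand): cagacatttttTTTTAAATggtcacatttc
Id2 (chr12:25093873-25093902, - strand): tgctttgattttTTTTATgctatgttataa
Id3 (chr4:136145332-136145361, + strand): gtatattaaactTTTTATaaaagttaacat
Tcf3 (chr10:80409708-80409737, - strand): tcagattttttTTTTAAATgtagacaaaag
Tcf12 (chr9:71842983-71843012, - strand): ttatgaatattTTTTAAATaaatagtattt
Mef2a (chr7:67231239-67231268, - strand): ttatagtgaagtTTTTATcaaatggttaag
Mef2c (chr13:83665589-83665618, + strand): gagaagcacaatTTTTATtgtgaccagtca
Mef2d (chr3:88171913-88171942, + strand): ctgttggtttgTTTTCATtatttctttccg

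The Id genes had short 3′ UTRs. Id3 had 536 bases of 3′ UTR and a single CPE, with 19 bases between it and the AATAAA. Id2 had 785 bases with 4 CPEs, 3 of them canonical, the nearest separated from AATAAA by 64 bases. Id1 had 563 bases with 3 CPEs, the nearest separated from ATTAAA by 117 bases. Of all tested genes with a 3′ UTR, 19.8% had a CPE within 100 bases before the hexamer, and Id2 and Id3 were among them. Id1 was not, and its 117 bases were close to the 122 of Mef2d, while Tcf12 had 287. The E-protein and Mef2 genes, apart from Tcf3, had long 3′ UTRs. Tcf4 had 16 CPEs in 6007 bases, Tcf12 had 8 in 3884, Mef2a had 15 in 3705, Mef2c had 10 in 4449 and Mef2d had 3 in 3443. Tcf3 had 1 CPE in 618 bases, of a type that is not canonical, and Mef2d likewise had no canonical CPE. Among genes of like 3′ UTR length (0.8 to 1.25 times), the median number of CPEs was 6 for Mef2a and Mef2d, 7 for Mef2c and Tcf12, 11 for Tcf4 and 1 for Tcf3 and the 3 Id genes. Mef2a, Mef2c, Tcf4, Tcf12, Id1 and Id2 lay above their median, Tcf3 and Id3 at it, and Mef2d below it. A match to these letters is a description and not evidence of binding.

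**Figure D1:**
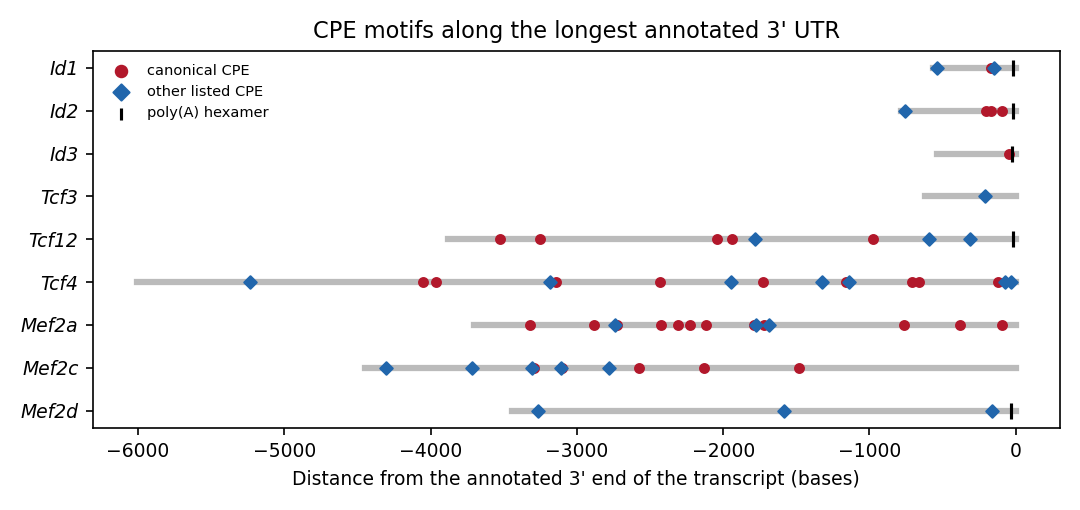
CPE motifs along the longest annotated 3′ UTR of the 9 genes, as distance in bases from the annotated 3′ end. Grey bars are the 3′ UTRs, red circles canonical CPEs, blue diamonds the other listed CPEs and black ticks poly(A) hexamers in the last 40 bases, and the short 3′ UTRs of Id1, Id2, Id3 and Tcf3 stand against those of the other 5 genes, which run over 3443 to 6007 bases.

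The counts on genes lay between 1284716 and 4941653 per library, lowest in IgG. The library totals that the authors used for FPKM (counts scaled by exon length and by library total) were larger, and the counts on genes were 69.5% to 79.8% of that total in input and CPEB1 IP but 39.1% to 39.5% in IgG. Fold changes below are therefore relative to the counts on genes of the compared libraries, with edgeR's TMM library sizes, unless stated. SC markers were present in every library, with a summed FPKM of 2436 to 3001 over 10 genes in input, 1135 to 1155 in IgG and 2025 to 2439 in CPEB1 IP. Endothelial markers, which the sort should remove, summed to 21.8 to 23.1 FPKM over 6 genes in input, 41.9 to 47.0 in IgG and 98.9 to 114 in CPEB1 IP. Cldn5 gave most of the sum in the precipitates (38.0 and 31.3 FPKM in IgG, 79.9 and 93.6 in CPEB1 IP) and Tek in input (11.6 and 14.3). Mural and smooth muscle markers summed to 477 to 544 FPKM in input and 319 to 324 in CPEB1 IP, fibro-adipogenic markers to 176 to 180 and 115 to 117, and haematopoietic markers to 7.38 to 14.0 and 5.94 to 9.98. The fibro-adipogenic sum follows Col3a1 (137 and 145 FPKM in input, 44.7 and 43.2 in CPEB1 IP). Des gave most of the mural and smooth muscle sum (297 and 318 FPKM in input, 233 and 233 in CPEB1 IP). Acta2 came next (133 and 159, then 57.6 and 63.2), while Pdgfrb had 7.34 and 6.73 in input. Myofibre markers summed to 28.1 to 28.7 in input and 48.5 to 63.0 in CPEB1 IP, and Schwann cell markers to 12.9 to 15.9 and 25.5 to 31.0. No marker gene of the 7 lists was at 0 counts in any group. In bulk libraries, fewer cells of a type and less RNA per cell cannot be told apart.

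In input, the Id genes stood far above both partner families per length. Id3 (chr4:136143497-136145755, + strand) had 613 and 659 FPKM in the input libraries, more than Myod1 itself, which had 404 and 389. Id1 (chr2:152736251-152737410, + strand) followed with 110 and 107 FPKM, and Id2 (chr12:25093799-25097140, - strand) with 52.3 and 71.2. The level of Id3 lay at the 99.9th percentile of the 23370 genes above 0 in input, and those of Id1 and Id2 at the 98.7th and 97.5th. Their relative Id4 had 1.02 and 1.69 FPKM, a small part of the Id message per length.

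Mef2d (chr3:88142372-88172086, + strand) was the main Mef2 message in input, with 24.7 and 24.5 FPKM. Mef2a (chr7:67231163-67372858, - strand) had 4.75 and 5.59 FPKM. Mef2c (chr13:83504034-83667080, + strand), the Mef2 gene known from differentiated muscle, had 0.263 and 0.353 FPKM, which rested on 19 and 23 counts. Mef2b had 4 and 3 counts. Mef2d thus made up 83.1% and 80.4% of the FPKM of the 3 Mef2 genes in input, and Mef2c about 1% (0.883% and 1.16%).

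The E-protein genes lay below the Id genes and Mef2d in input, with Tcf3, Tcf4 and Tcf12 at the 88.2nd, 82.4th and 73.9th percentiles. Tcf3 (chr10:80409514-80433647, - strand), which encodes E12 and E47, had 13.2 and 15.7 FPKM in input. Tcf4, which encodes E2-2, had 8.71 and 9.32 FPKM, and Tcf12 (chr9:71842688-72111871, - strand), which encodes HEB, had 4.17 and 6.03. Per length Tcf3 was the leading E-protein gene, while by counts Tcf4 led (1098 and 1059 against 245 and 263), since the summed exon length of Tcf4 is 27382 bases and that of Tcf3 is 4039. The summed length covers exons of all annotated isoforms, so the FPKM of a gene with many isoforms can understate its messages.

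The order in input was Id3, Id1, Id2, Mef2d, Tcf3, Tcf4, Mef2a, Tcf12 and Mef2c, and every neighbouring pair was separated in both libraries except Mef2a and Tcf12, whose ranges overlapped. TMM CPM per kilobase gave the same order. In IgG the order of the means was also the same, with the FPKM of Tcf4 and Mef2a overlapping as well. In CPEB1 IP, Tcf3 moved from the fifth place to the seventh, below Tcf4 (7.03 to 7.34 FPKM) and Mef2a (6.12 to 6.33), and overlapped Tcf12. On the TMM scale its range also overlapped that of Mef2a there.

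**Figure D2:**
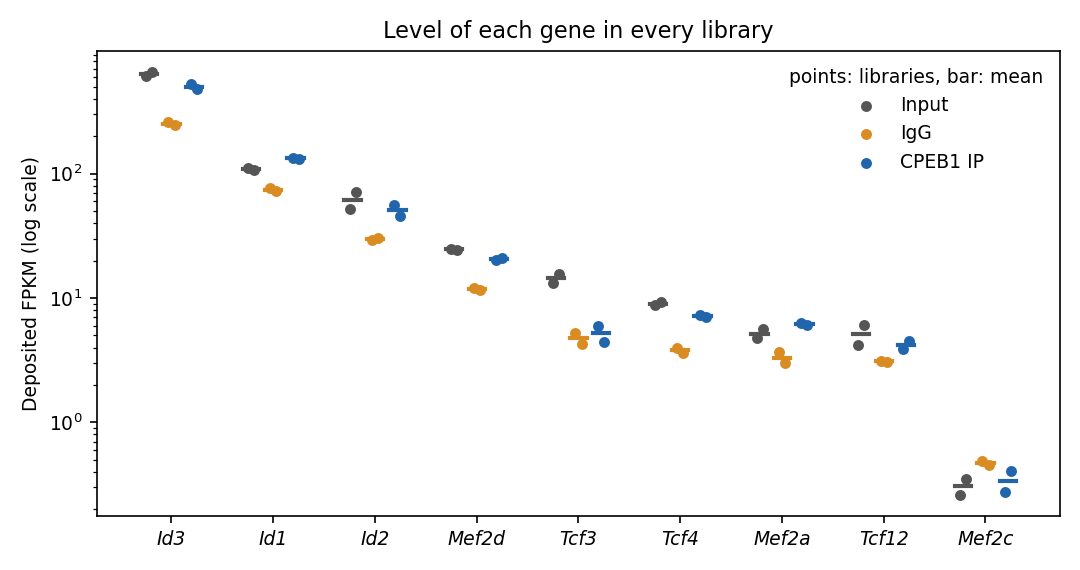
Deposited FPKM (log scale) of the 9 genes in the 6 libraries, by group, with points for libraries and a bar for the mean of 2. Id3 leads in every group, and the CPEB1 IP points of Tcf3 (6.01 and 4.42) lie well under its input points (13.2 and 15.7).

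CPEB1 IP was compared with IgG to ask which messages come down with CPEB1 beyond what beads and a control antibody bring down. None of the 9 genes rose over IgG, and Tcf3, Tcf12 and Mef2c were lower. All 9 were tested. Across the 12124 genes tested, 14.7% were called higher and 18.7% lower, against 0 and 3 of these 9, at an adjusted p under 0.05 (Benjamini-Hochberg) from the quasi-likelihood test of edgeR. At an unadjusted p under 0.05 edgeR likewise had 0 higher. DESeq2 on the same genes had 0 higher and 0 lower after adjustment. The median log2 fold change of the 9 was -0.00080, and that of all genes tested was -0.011.

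Tcf3 had 54.5 and 45.5 TMM CPM in IgG and 36.8 and 26.0 in CPEB1 IP. The groups did not overlap, and the log2 fold change was -0.71 (SE 0.22, adjusted p = 0.0185, edgeR). The counts were low, 69 and 60 in IgG and 89 and 127 in CPEB1 IP. Without CPEB1 IP replicate 2 the call was lost (log2 fold change -0.41, edgeR adjusted p = 0.369), as it was without IgG replicate 1 (adjusted p = 0.135, edgeR).

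Mef2c had 19.7 and 18.9 TMM CPM in IgG and 6.62 and 9.23 in CPEB1 IP, from 25 and 25 against 16 and 45 counts. Both CPEB1 IP libraries lay under both IgG libraries, at a log2 fold change of -1.24 (95% interval -2.00 to -0.47, adjusted p = 0.0126, edgeR). Tcf12 had 125 and 126 TMM CPM in IgG and 91.1 and 102 in CPEB1 IP, a log2 fold change of -0.37 (SE 0.13, adjusted p = 0.0330, edgeR). Leaving out any single library ended the Tcf12 call (edgeR adjusted p of 0.122 to 0.326), and leaving out CPEB1 IP replicate 1 or either IgG library ended that of Mef2c (up to 0.117). Mef2c and Tcf12 have 15715 and 15529 bases of summed exons. Of the tested genes with 10 kb or more, 40.4% were lower in CPEB1 IP than in IgG and their median log2 fold change was -0.41. Mef2a (14681 bases) and Tcf4 (27382) are in the same class and had 0.10 and 0.11. The part of gene length in these calls was not tested.

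None of the Id genes passed the test against IgG. Id3 had 1200 and 1159 TMM CPM in IgG and 1432 and 1250 in CPEB1 IP, and its log2 fold change was 0.18 with a 95% interval of -0.01 to 0.38. Without CPEB1 IP replicate 2 it was 0.30 and past the threshold (adjusted p = 0.00212, edgeR). Id1 had a log2 fold change of 0.04 (95% interval -0.18 to 0.25) and Id2 of -0.06 (-0.31 to 0.20). Among the rest, Tcf4 had 0.11 (-0.10 to 0.32), Mef2a 0.10 (-0.17 to 0.36) and Mef2d -0.00 (-0.23 to 0.22). Each of these intervals ends below a log2 fold change of 1 with TMM library sizes, and the values depend on that scaling, as given below. For comparison, Myod1 was higher in CPEB1 IP than in IgG by 0.26 (95% interval 0.06 to 0.46, adjusted p = 0.0423, edgeR), and Myf5 differed by -0.05 (-0.27 to 0.18). The intervals of Myod1 and Id3 overlapped.

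**Figure D3:**
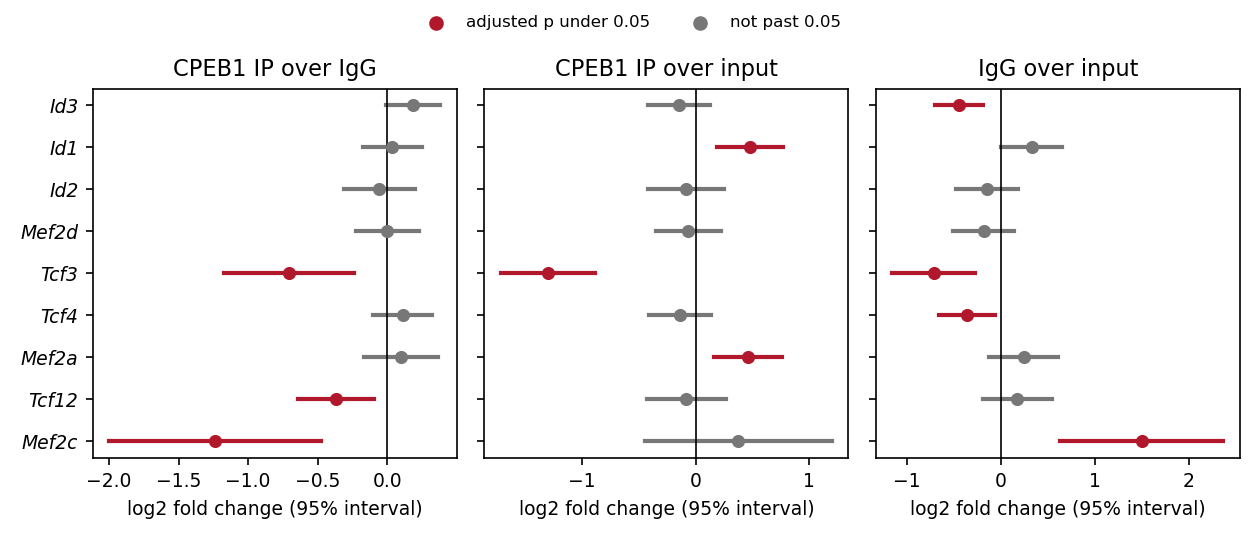
Log2 fold changes of the 9 genes (points) with 95% intervals (lines) from edgeR in the 3 comparisons, red where the adjusted p was under 0.05. Tcf3 lies to the left of 0 in every panel, at -0.71, -1.30 and -0.72.

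A rule like that of the study was applied, by which a message is CPEB1-associated when its FPKM in CPEB1 IP is over 2 times that in IgG in each experiment, with an adjusted p under 0.05. Here 1 was added to each FPKM, which draws the ratio of a low gene such as Mef2c toward 1, and the p was that of edgeR. An experiment was taken to be the libraries of the same number, which the labels do not state to be a pair. By this rule 12.1% of the tested genes (1464) were associated, and none of the 9 was. The number over all genes was 839 with the p of DESeq2 and 56 with TMM library sizes, with 0 of the 9 in each. The ratio alone was over 2 in both experiments for 14.4% of tested genes. Id3 came nearest, at 2.01 and 1.95. Id1 had ratios of 1.75 and 1.82, Id2 of 1.86 and 1.49, and Tcf4 of 1.67 and 1.73. Mef2d had 1.63 and 1.75, Mef2a 1.57 and 1.79, Tcf12 1.18 and 1.35, Tcf3 1.12 and 1.03, and Mef2c 0.858 and 0.962. The median ratio over tested genes was 1.45 and 1.52, and Tcf12, Tcf3 and Mef2c lay below it in both experiments, as Id2 did in experiment 2. Myod1 had 2.12 and 2.05 and met the rule. On the TMM scale Myod1 had 2005 and 1988 CPM in IgG and 2523 and 2256 in CPEB1 IP. Those ratios were under 2 in both experiments.

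How these messages compare with IgG depends on the library scaling. With the library totals of the deposited FPKM, of which IgG has the smallest share on genes, the median log2 fold change of all genes moved from -0.01 to 0.80, and the calls over all genes from 44.0% to 88.4% higher. Under that scaling 7 of the 9 were called higher, Id3 at 0.99, Tcf4 at 0.92, Mef2a at 0.91, Id1 at 0.84, Mef2d at 0.81, Id2 at 0.75 and Tcf12 at 0.44, and Tcf3 was at 0.10. Another library total moves every gene by about the same amount, so values relative to the median of all genes are fixed by construction, with Id3 at 0.19, Tcf12 at -0.36, Tcf3 at -0.70 and Mef2c at -1.22. DESeq2 run on all genes with a count, an alternative chosen after seeing the data, called Id3 (0.47), Tcf4 (0.39) and Id1 (0.32) higher and none lower.

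**Figure D4:**
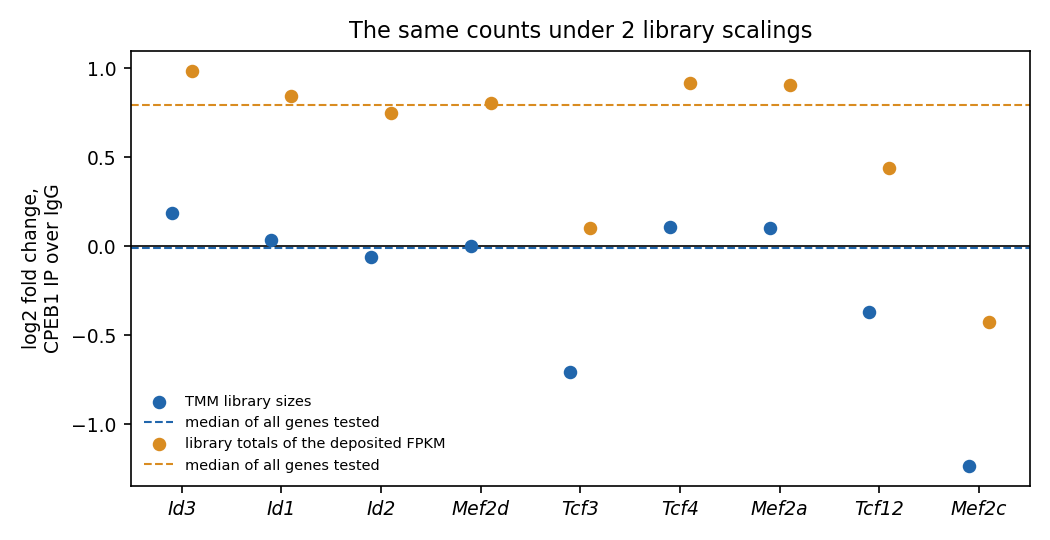
CPEB1 IP over IgG as log2 fold change for the 9 genes with TMM library sizes (blue) and with the library totals of the deposited FPKM (orange), with the median of all tested genes under each as a dashed line (-0.01 and 0.80). The whole set of points moves up with the median, as a change of library total requires, and Tcf3, Tcf12 and Mef2c lie below it.

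CPEB1 IP was then set against input, where the comparison shows which messages are over- or under-represented in the precipitate relative to the cell's RNA. This comparison uses the same CPEB1 IP libraries as the one before. Tcf3 fell, and Id1 and Mef2a rose. The background was 17.0% of 12171 tested genes called higher and 15.8% lower, against 2 and 1 of the 9. The median log2 fold change of the 9 was -0.08, and that of all genes was -0.0038.

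Tcf3 had 73.2 and 78.4 TMM CPM in input and 36.7 and 26.2 in CPEB1 IP. Both CPEB1 IP libraries held less than either input library, at a log2 fold change of -1.30 (95% interval -1.72 to -0.89, adjusted p = 2.88e-04, edgeR). It was called lower under every alternative run, over a range of -1.52 to -1.08, with an adjusted p of at most 0.00514 (edgeR or DESeq2). No other of the 9 genes had a call of which this holds.

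Id1 had 176 and 153 TMM CPM in input and 236 and 224 in CPEB1 IP, a log2 fold change of 0.48 (SE 0.13, adjusted p = 0.0151, edgeR). Mef2a had 95.9 and 102 in input and 141 and 132 in CPEB1 IP, a log2 fold change of 0.46 (SE 0.14, adjusted p = 0.0223, edgeR). Neither gene's groups overlapped. Mef2a did not pass with DESeq2 (adjusted p = 0.0593), nor either gene with the library totals of the deposited FPKM, which moved the median of all genes to -0.19. Without either CPEB1 IP library the Id1 call was lost (edgeR adjusted p of 0.169 and 0.195), and so was that of Mef2a (up to 0.249). Mef2a shares exon bases with Lysmd4 on the opposite strand, which had 14 to 44 counts per library, and the strand setting of the counting is not given in the sources used here. The remaining 6 genes did not pass, with Id3 at -0.15 (95% interval -0.42 to 0.12), Id2 at -0.08, Tcf4 at -0.14, Tcf12 at -0.08, Mef2d at -0.07 and Mef2c at 0.38. For Mef2c the interval ran from -0.45 to 1.20 and the direction was not resolved at 16 to 45 counts. The 2 genes that rose also had positive log2 fold changes in IgG over input, without passing. These were 0.33 for Id1 (SE 0.16, adjusted p = 0.0989, edgeR) and 0.24 for Mef2a (SE 0.18, adjusted p = 0.295, edgeR). In CPEB1 IP over IgG they had 0.04 and 0.10, and neither passed.

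Endothelial markers rose over the same comparison, 4 of 6 tested genes with a median log2 fold change of 1.40. Schwann cell markers rose in 4 of 4 (median 1.06), fibro-adipogenic markers in 3 of 5 (1.25, with 1 lower) and myofibre markers in 2 of 6 (0.72). SC markers fell in 5 of 10 (median -0.61). Id1 is also known from endothelial cells, and the part of cells of any of these kinds in the levels of the 9 genes was not tested. Mural and smooth muscle markers were lower in 3 of 6 in CPEB1 IP over input. In IgG over input, 5 of the 6 endothelial genes were higher as well. So were 4 of 6 fibro-adipogenic genes (1 lower), 2 of 4 Schwann cell genes and 1 of 6 myofibre genes. SC markers were lower there in 8 of 10 (median -1.07), and mural and smooth muscle markers in 4 of 6.

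The IgG precipitate was set against input to see how the control precipitate differed from the cell's RNA. Though it held fewer counts, IgG had a count on 32381 and 32328 genes. Input had one on 21150 and 20158 genes, and CPEB1 IP on 25280 and 29465. The part of this wider spread of counts in the IgG values was not tested. Mef2c was higher, and Tcf3, Tcf4 and Id3 were lower. At an unadjusted p under 0.05 from edgeR, Id1 was higher as well, but it did not pass after adjustment. Of 12980 tested genes 21.4% were called higher and 19.4% lower, against 1 and 3 of the 9. The median of the 9 was -0.15, and that of all genes 0.031.

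Mef2c had 6.06 and 7.28 TMM CPM in input and 19.4 and 18.6 in IgG. This is a log2 fold change of 1.501 (95% interval 0.63 to 2.37, adjusted p = 0.00470, edgeR), and both IgG libraries lay above both input libraries, also in FPKM (0.490 and 0.458 against 0.263 and 0.353). The call was lost with the library totals of the deposited FPKM (log2 fold change 0.62) and with DESeq2 on all genes with a count (adjusted p = 0.183). Of genes with 10 kb or more of exons, 37.5% were higher in IgG than in input (median 0.33). Tcf12 and Mef2a, which are as long, had 0.17 and 0.24 and did not pass, and Tcf4, the longest of the 9, was lower (-0.37).

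Tcf3 had 78.1 and 83.2 TMM CPM in input against 53.5 and 44.6 in IgG, a log2 fold change of -0.72 (SE 0.22, adjusted p = 0.00747, edgeR). It was thus lower in IgG than in input, and lower again in CPEB1 IP than in IgG, although neither step was held by every alternative. With DESeq2 neither step of Tcf3 was called (adjusted p = 0.0604 and 0.150). The second step changed sign with the library totals of the deposited FPKM (0.10). Id3 had 1611 and 1552 in input against 1178 and 1137 in IgG, which is -0.45 (SE 0.13, adjusted p = 0.00398, edgeR). Tcf4 had 350 and 335 in input against 274 and 257 in IgG, which is -0.37 (SE 0.15, adjusted p = 0.0454, edgeR). The Id3 and Tcf4 calls were each lost when either IgG library was left out, the Tcf4 call also with DESeq2 (adjusted p = 0.126), RLE size factors (0.0654) and no TMM (0.0951), and the Tcf3 call without IgG replicate 2 (adjusted p = 0.142, edgeR). With the library totals of the deposited FPKM the median of all genes moved to -0.85 and 8 of the 9 were called lower, but relative to that median Mef2c was at 1.47, Tcf3 at -0.75, Id3 at -0.48 and Tcf4 at -0.40, close to the TMM values, as that construction requires. Myod1 went the other way from Tcf3 and Tcf4 on the TMM scale, with a log2 fold change of 0.93 over input in IgG (adjusted p = 2.55e-07, edgeR) and of 1.31 in CPEB1 IP (adjusted p = 2.02e-05, edgeR).

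Ratios between members within a library do not depend on how libraries are scaled. The Tcf3 to Tcf4 count ratio was 0.223 and 0.248 in input, 0.195 and 0.173 in IgG, and 0.121 and 0.0928 in CPEB1 IP. The 3 groups did not overlap. Tcf3 made up 14.9% (95% Clopper-Pearson interval 13.2 to 16.7) and 15.4% (13.7 to 17.2) of the E-protein counts in input, 11.9% (9.36 to 14.8) and 10.5% (8.10 to 13.3) in IgG, and 8.51% (6.89 to 10.4) and 6.38% (5.35 to 7.54) in CPEB1 IP. Intervals of the input libraries lay wholly above those of the CPEB1 IP libraries, while those of IgG overlapped CPEB1 IP replicate 1. These intervals cover counting error only.

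The Id1 to Id3 count ratio was 0.116 and 0.105 in input, 0.189 and 0.190 in IgG, and 0.165 and 0.178 in CPEB1 IP. Id1 was therefore better represented relative to Id3 in both precipitates than in input, and most so in IgG. The Mef2c to Mef2d ratio showed IgG apart from the others. It was 0.106 and 0.104 in IgG, against 0.0279 and 0.0378 in input and 0.0358 and 0.0506 in CPEB1 IP.

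**Figure D5:**
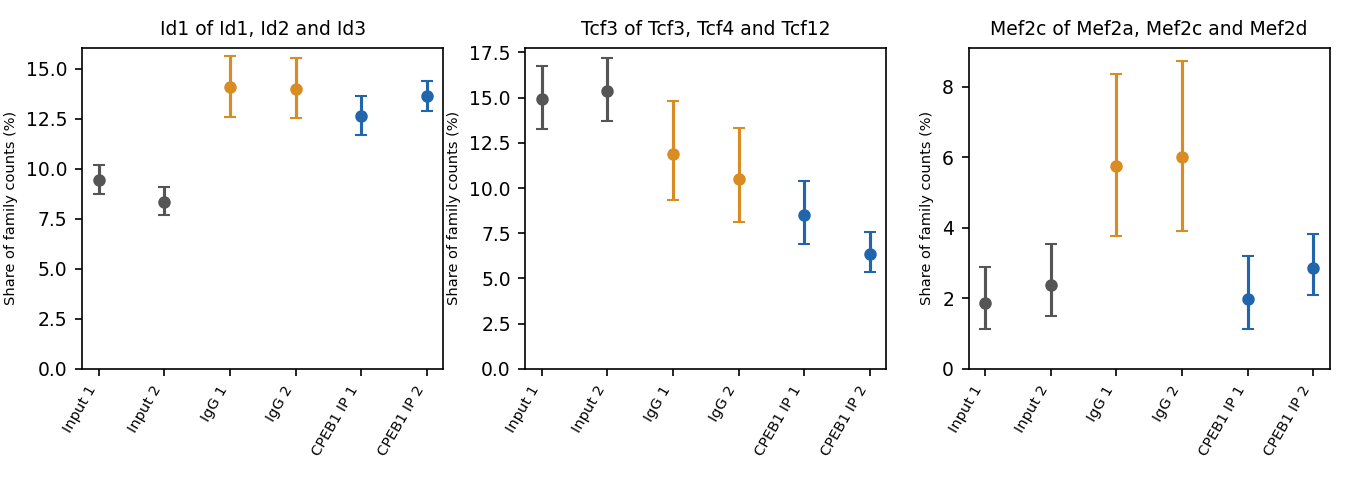
Share of the family's counts taken by Id1 (left), Tcf3 (middle) and Mef2c (right) in each of the 6 libraries, in percent, with 95% Clopper-Pearson intervals for counting error. Tcf3 steps down from 14.9% and 15.4% in input to 8.51% and 6.38% in CPEB1 IP, and Mef2c stands highest in IgG (5.75% and 6.00%).

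The summed level of the 3 Id genes per kilobase was 29.7 and 27.0 times that of the 3 E-protein genes in input, 29.7 and 31.7 times in IgG, and 41.6 and 41.2 times in CPEB1 IP. Both CPEB1 IP libraries lay above the other 4, which overlapped between input and IgG. With 2 libraries against 2, an exact two-sided permutation test cannot go below 0.333, and it gave 0.333 for CPEB1 IP against either group. The summed Mef2 level per kilobase was 1.14 and 0.980 times that of the E-protein genes in input, 1.31 and 1.36 times in IgG and 1.57 and 1.72 times in CPEB1 IP. Both ratios carry the lower Tcf3 of the precipitates in their denominator. They also divide by exons summed over all isoforms (27382 bases for Tcf4), which can overstate the excess of Id over E-protein genes. By counts, the input libraries held 6227 and 6137 for the 3 Id genes, against 1641 and 1711 for the 3 E-protein genes.

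Of 22 tested Mef2 cofactors and class IIa deacetylases, 3 were higher in CPEB1 IP than in IgG and 4 lower, a share near the 14.7% and 18.7% of all genes. Hdac9, a class IIa deacetylase that binds Mef2, was lowest, with 24 and 24 counts in IgG and 4 and 11 in CPEB1 IP (log2 fold change -3.16), and it had 2 and 2 counts in input. Camk2d (-0.57), a kinase of the family that drives class IIa deacetylases out of the nucleus, and Tead1 (-0.53), a DNA-binding partner of the Vgll cofactors, were lower as well. Vgll4 (0.55), Camk1 (0.55) and Ywhaz (0.33) were higher.

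Among 21 tested bHLH and E-box relatives, 4 were higher than IgG and 1 lower. The background for each list against IgG was 14.7% of all tested genes higher and 18.7% lower. Heyl, a Notch target, rose by 0.92 and Msc, a bHLH repressor that competes for E proteins, by 0.43. Tfe3 was at 0.40 and Myod1 at 0.26. Bhlhe41 was lower, at -1.12. Of 24 coactivators and corepressors of Myod1 and E proteins, Hdac1 (0.74) and Prmt5 (0.52) were higher and Runx1t1 (-1.83) lower. In the BMP and Smad list, which stands upstream of the Id genes, 1 of 17 was higher (Bmp4, 0.55) and 1 lower (Bmpr1b, -1.32). Few counts lay under Runx1t1, 16 and 8 in IgG and 5 and 14 in CPEB1 IP. The same holds for Bmpr1b, with 8 and 8 in IgG and 5 and 13 in CPEB1 IP. Against input, 9 of 22 bHLH relatives were lower in CPEB1 IP and 4 higher, where the background was 15.8% and 17.0%. Those lower included Myog (-2.16), Hey1 (-1.38) and Heyl (-1.34), and those higher Snai1 (1.64), Myod1 (1.31) and Max (0.83). In IgG over input, 10 of 22 were lower, Myog (-3.44) and Heyl (-2.38) among them, and 2 higher, Snai1 (2.21) and Myod1 (0.93). The background there was 19.4% and 21.4%. Of 19 BMP and Smad genes, 1 rose in CPEB1 IP over input (Smad4, 1.06) and none fell, in edgeR.

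For the leading member of each family, the 3 tested genes with the most similar pattern were found by the Euclidean distance over the 6 libraries of log2 TMM CPM centred on each gene, among 12123 genes. Those nearest to Id3 were Hr (distance 0.0496), Ggt5 (0.0603) and Tcf4 (0.109), where the median distance was 1.03. An E-protein gene, Tcf4, was therefore among the 3 genes nearest to Id3, and the means of both were in the order input, CPEB1 IP, IgG. Of the 3 comparisons, only IgG against input was called for these genes. Those nearest to Tcf3 were Itga8 (0.273), Cdc25b (0.292) and Mettl15 (0.337), with a median of 1.68, and all of them stepped down from input to IgG to CPEB1 IP as Tcf3 did. Those nearest to Mef2d were Cyb5r1 (0.0798), Srsf7 (0.0802) and Nlgn2 (0.133), with a median of 0.986, and they were close to flat across the groups. The points share the 6 libraries, and the distances are descriptions.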

How the data were processed

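Raw counts and FPKM were used from 6 RIP-seq libraries. The authors aligned the read pairs to mm10 using HISAT, and the raw counts per gene that they deposited come from featureCounts and are not normalized. The deposited FPKM values were computed by the authors from the count, the summed exon length and a library total above the counts on genes. The annotation release and strand setting are not given in the sources used here. Counts on genes lay between 1284716 and 4941653 per library, and 2 libraries per group limit the precision. Where nothing says that libraries came from separate animals, p-values measure the spread between these libraries only. Replicates of each group differed beyond sampling noise.

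Counts were tested in R 4.3.3 with edgeR 4.0.16 (filterByExpr, TMM, quasi-likelihood test, 2 groups at a time, Benjamini-Hochberg threshold 0.05), on all genes passing the filter. The SE is the log2 fold change divided by the square root of F. DESeq2 1.42.0, other library sizes, no filter, a joint fit, a replicate block and leaving out each library were alternatives. For pairing by number, deviations from group means had correlations of -0.0107, -0.0206 and 0.0324. The number was therefore not treated as a pairing in the main tests, while the FPKM rule and the replicate block used it. In simulated counts the test recovered 90 of 100 genes shifted by 2 on the log2 scale and 60 of 100 shifted by 1 for CPEB1 IP against IgG, 89 and 56 for CPEB1 IP against input, and 75 and 33 for IgG against input. Unchanged genes called numbered 3, 3 and 1. Each simulated gene had the spread of the trend at its level, so genes that vary more than the trend were not covered. CPE motifs were searched in GENCODE M21 3′ UTR sequences with Python 3.11.15 and pandas 2.3.3. All 9 members are named, with up to 3 genes in each direction with the largest change among those called in each of 4 pathway lists, the Myod1 family, and the 3 genes nearest in pattern to the leading member of each family. Id4 and Mef2b were named as relatives after their values were seen. The members and lists were chosen with earlier results of these data known. The paper's lists of associated genes were not used.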

Additional observations from a re-analysis of the deposited data

How the results depend on the processing

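Of the 9 genes, only Tcf3 in CPEB1 IP against input was called under all alternatives run. In the remaining comparisons the calls depended on the setting, and the cause was not tested unless the setting itself gives it (fewer libraries, another library size). The shares of calls that were higher, given above for the library totals, were 44.0% for CPEB1 IP over IgG, 60.1% with no filter and 60.5% and 60.9% without CPEB1 IP replicate 1 or 2. For CPEB1 IP over input they were 51.9% and 31.0% with the library totals, and for IgG over input 52.4% and 13.4%.

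For CPEB1 IP over IgG, DESeq2 called 855 genes higher and 967 lower, and 0 of the 9 lower. With the library totals of the deposited FPKM, 7149 genes were higher and 937 lower, 7 of the 9 were higher and 0 lower, and Mef2d (0.81), Tcf3 (0.10), Tcf12 (0.44) and Id2 (0.75) changed sign. With no filter, 3513 genes were higher, 4 of the 9 were higher and 0 lower, with Mef2d at 0.40, Tcf12 at 0.030 and Id2 at 0.34. DESeq2 on all genes with a count called 984 genes and 0 of the 9 lower, and 3 of the 9 higher, with Mef2d at 0.28 and Id2 at 0.23. The fold change of Mef2d, which was next to 0, was 0.012 with DESeq2, 0.011 with RLE size factors, 0.065 with all 6 libraries in 1 fit, 0.00020 with the replicate block, and 0.027 to 0.067 with a library left out. That of Id2 was 0.014 with all 6 libraries, and -0.18 to 0.14 with a library left out. Leaving out a library gave 1054 to 1783 genes higher and 677 to 1750 lower, and 0 to 1 of the 9 higher and 0 to 1 lower. In such fits the lone library is assumed to vary like the other group.

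For CPEB1 IP over input, the library totals gave 1235 genes higher and 0 of the 9. DESeq2, no TMM and no filter each kept 1 of the 9 higher. DESeq2 on all genes gave 1230 genes higher, 1190 lower and 1 of the 9 higher. A library left out gave 957 to 2646 genes higher, 1064 to 2347 lower and 0 to 2 of the 9 higher. Tcf12 then ranged from -0.29 to 0.13 and Id2 from -0.27 to 0.066.

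For IgG over input, DESeq2 gave 1695 genes higher, 1596 lower and 1 of the 9 lower. The library totals gave 1108 higher, 7180 lower, and 0 and 8 of the 9, with Mef2a at -0.64, Tcf12 at -0.72 and Id1 at -0.55. No filter put Mef2a at -0.029 and Tcf12 at -0.10. DESeq2 on all genes gave 1188 higher, 1602 lower and 0 of the 9 higher. A library left out gave 1354 to 2170 genes higher, and 1 to 2 of the 9 higher and 0 to 3 lower. Tcf12 then ranged from -0.0014 to 0.37 and Id2 from -0.29 to 0.0019.

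By the FPKM rule 1464 genes were associated, 673 with a pseudocount of 5, 839 with the p of DESeq2 and 56 with TMM library sizes, and 0 of the 9 under each alternative run. The replicate block changed no call among the 9 genes. Deposited FPKM gave the same Id to E-protein ratios as counts per kilobase, as its construction requires. Mef2c, at 16 to 45 counts, is limited by depth.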
